A study of Mus musculus with 24 samples.

Results

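The genes described here encode subunits of respiratory complexes I, III and IV and of ATP synthase (complex V). They were chosen by symbol among protein-coding genes: mt-Nd, mt-Co, mt-Cyt and mt-Atp for the mitochondrial genome, and Ndufa, Ndufb, Ndufc, Ndufs, Ndufv, Uqcr, Cox4 to Cox8 and Atp5 for the nuclear genome, without the Ndufaf assembly factors. The rule found 95 genes of 49172 in all, 13 mitochondrial and 82 nuclear. The mitochondrial set held 7 subunits of complex I, 1 of complex III, 3 of complex IV and 2 of complex V. The nuclear set held 38, 8, 18 and 18. All 13 mitochondrial and 77 nuclear genes had enough counts to be tested, and 5 nuclear genes had not: Cox4i2, Cox8b, Cox8c, Cox6b2 and a further gene model with the symbol Atp5o. Symbols group a few genes away from their known place: Ndufa4 is counted with complex I by its name but is known as a subunit of complex IV.

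The respiratory chain passes electrons from NADH through complex I, ubiquinone, complex III, cytochrome c and complex IV to oxygen, and pumps protons that ATP synthase uses to make ATP. Its complexes other than complex II mix subunits from both genomes. The mitochondrial genes are transcribed from both strands of a circular genome as long precursors that are cut at the tRNAs, while the nuclear genes are scattered over the chromosomes, are transcribed singly, and have promoters in which NRF1 and ETS-type factors such as GABP are known to bind. Osteocytes, the cells this line models, live enclosed in mineralized matrix, where oxygen is low.

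The 24 libraries came from Ocy454, a mouse osteocytic cell line, after vehicle, lysophosphatidic acid (LPA, a lipid that acts on cell surface receptors), 1,25-dihydroxyvitamin D (1,25D, the hormone of the vitamin D receptor) or both agents, for 2 h or 8 h, with 3 libraries in each of the 8 groups. The labels and notes used here give no doses, no passage and no further alleles. No label says whether libraries of a group are separate cultures. The p-values below thus reflect the spread among these libraries, which may be technical. Each library held 32.96 to 33.84 M estimated counts.

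The letter in each deposited table's name and the sample title disagree for the single treatments, so those groups are called the code D libraries (titled LPA) and the code L libraries (titled 1,25D). Cyp24a1, the vitamin D 24-hydroxylase and a textbook vitamin D response gene, held 102 counts over the 3 code D libraries at 8 h, 1 over the 3 code L libraries, 1 in vehicle and 87 with both agents. Expression thus goes against the titles, and which agent a code stands for is a reservation on each direction given below. The groups themselves hold the same libraries under either name. Of 12 osteocyte markers 7 stood at 1 TPM or more (transcript abundance corrected for length and depth), and the late markers Sost, Mepe and Fgf23 had mean levels of 0.0216, 0.000907 and 0.0146 TPM. The 7 were Dmp1, Pdpn, Irx5, Fam20c, Gja1, Cd44 and Tnfrsf11b, while Phex and Ptprz1 also stood below 1 TPM. RNA of the late markers Sost, Mepe and Fgf23 was thus nearly absent, and how mature the cells were was not tested.

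Mitochondrial members stood far above nuclear ones on the TPM scale. Their median of the mean levels over 24 libraries was 15007 TPM, against 185 TPM for the 82 nuclear genes. The highest was mt-Atp6, a proton channel subunit of ATP synthase, at 30959 TPM, followed by its neighbour mt-Atp8 at 24276, mt-Co1 (the catalytic subunit of complex IV) at 18959, mt-Cytb (cytochrome b of complex III) at 18441 and mt-Nd1 at 17774. The lowest was mt-Nd3, a small membrane subunit of complex I, at 465 TPM, below several nuclear genes, among them Cox6a1, Cox8a and Atp5b. By mean counts per library mt-Atp8 held only 36509, against 459736 for mt-Atp6 and 773703 for mt-Co1, and its TPM ran from 11721 to 51622. Its rank by TPM thus rests on the correction for length. The genes mt-Atp8 and mt-Atp6, and mt-Nd4l and mt-Nd4, overlap and share transcripts, so the split of reads between them is uncertain. The same holds for mt-Nd6, which lies on the other strand, because no source used here says whether counting used strand, and for any reads shared with nuclear copies of mitochondrial DNA.

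Among nuclear members Cox6a1 led at 1317 TPM, before Cox8a at 1209 TPM and Atp5b, the catalytic beta subunit of ATP synthase, at 1108 TPM. Complex I was led by Ndufa3 (651 TPM) and complex III by Uqcr10 (574 TPM), while the Rieske iron-sulfur protein gene Uqcrfs1 was the lowest of complex III at 45.0 TPM. Over the 24 libraries Cox6a1 ran only from 1169 to 1499 TPM and Atp5b from 919 to 1316 TPM.

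Where complex IV has subunits in general and tissue-restricted versions, the general one prevailed in each pair. Cox6a1 stood at 1317 TPM and the heart and muscle form Cox6a2 at 12.9 TPM. Cox7a2 stood at 248 TPM against 4.17 for the muscle form Cox7a1. Cox4i1 had 481 TPM and its lung-enriched, oxygen-sensitive relative Cox4i2 0.183. Cox8a had 1209 TPM, with 0.315 for the muscle and brown fat form Cox8b and no count at all for Cox8c. Cox6b1 had 630 TPM against 0.112 for the testis form Cox6b2, and Cox7b 198 TPM against 0.882 for Cox7b2. Ndufa4 stood at 286 TPM and its hypoxia-responsive relative Ndufa4l2 at 7.08 TPM. Of 10 muscle markers only Acta1 reached 1 TPM (2.19 TPM), and the summed level of the list ran from 2.05 to 4.02 TPM.

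**Figure D1:**
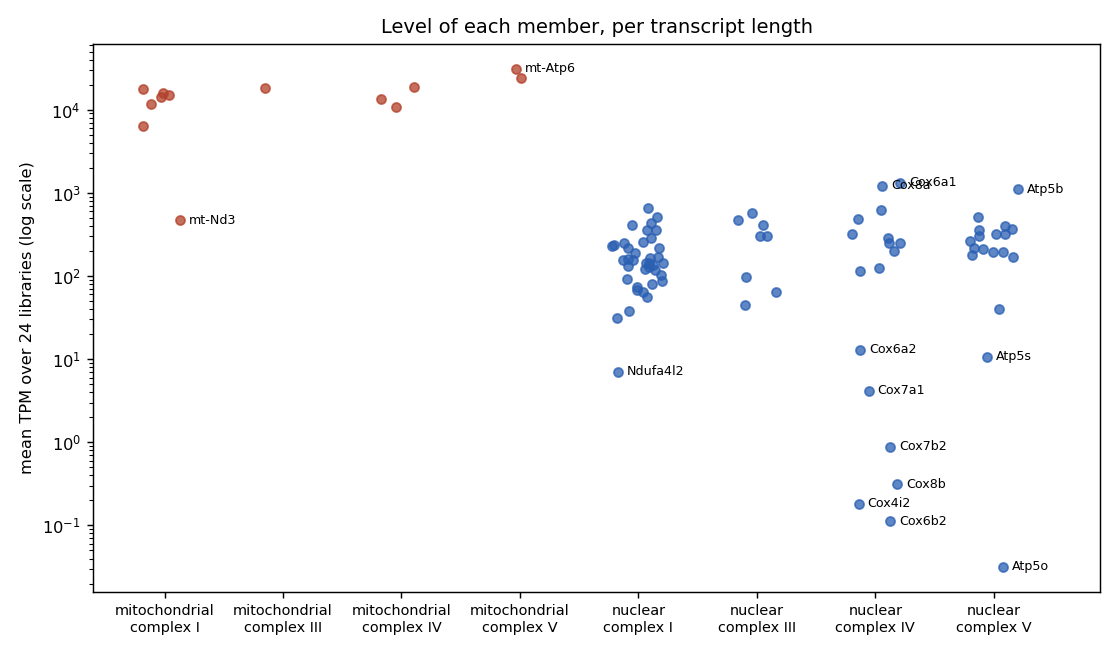
Mean level of each member over 24 libraries in TPM (log axis), by genome and complex, 1 point per gene. Mitochondrial genes have a median of 15007 TPM with mt-Nd3 far below at 465, nuclear genes a median of 185, and the restricted isoforms lie far lower, above the further Atp5o gene model. Cox8c, at 0, is not drawn.

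Promoters were available from RefSeq (GRCm38.p6) for 64 of the nuclear members, and the 250 bases before the start were searched on both strands for 3 short cores. The NRF1 core GCATGCG was present in 8 of 64 (12.5%), against 3.43% of 27025 promoters of all genes and 5.7% of those of tested genes. The ETS core CCGGAAG was present in 11 (17.2%), against 7.83% of all and 14.6% of tested genes. The YY1 core AAGATGG was in 1 (1.56%), against 5.18% of all promoters. Below are the 4 promoters that hold the NRF1 core among the 19 available for genes of the 8 h interaction described later, read 5′ to 3′ along the gene. Capitals mark the NRF1 core, read here on both strands so that overlapping matches make CGCATGCG, and in Cox6a1 also the ETS core on the opposite strand.

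Cox6a1, chr5:115348959-115349208, minus strand: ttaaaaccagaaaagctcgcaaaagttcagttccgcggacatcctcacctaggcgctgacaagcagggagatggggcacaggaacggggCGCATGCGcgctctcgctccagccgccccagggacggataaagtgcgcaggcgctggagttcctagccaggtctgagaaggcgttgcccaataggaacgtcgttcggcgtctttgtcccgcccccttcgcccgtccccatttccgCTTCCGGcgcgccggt

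Atp5k, chr5:108434400-108434649, minus strand: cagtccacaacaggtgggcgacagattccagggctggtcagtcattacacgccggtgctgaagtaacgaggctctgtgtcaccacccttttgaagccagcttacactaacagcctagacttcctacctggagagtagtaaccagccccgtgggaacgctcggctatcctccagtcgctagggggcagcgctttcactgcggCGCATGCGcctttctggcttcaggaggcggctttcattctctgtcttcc

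Ndufa8, chr2:36049339-36049588, minus strand: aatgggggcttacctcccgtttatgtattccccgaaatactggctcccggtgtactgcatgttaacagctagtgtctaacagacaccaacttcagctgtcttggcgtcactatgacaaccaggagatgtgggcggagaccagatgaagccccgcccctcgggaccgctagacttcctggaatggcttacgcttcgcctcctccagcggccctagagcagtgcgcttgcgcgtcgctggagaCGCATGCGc

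Ndufa11, chr17:56717512-56717761, plus strand: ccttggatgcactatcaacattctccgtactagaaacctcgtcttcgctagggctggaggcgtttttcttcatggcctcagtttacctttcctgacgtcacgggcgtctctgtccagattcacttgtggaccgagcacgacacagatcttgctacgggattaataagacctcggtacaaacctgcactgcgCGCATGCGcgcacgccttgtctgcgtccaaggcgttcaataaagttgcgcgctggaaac

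Such matches describe letters in these windows only. No binding was measured here.

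The group means of the summed mitochondrial genes lay between 10.4 and 13.4% of all gene-assigned counts, with wide differences between libraries of a group. The sum took 8.87% in vehicle replicate 1 at 2 h and 16.7% in vehicle replicate 2 at 8 h, with a median of 11.7% over the 24 libraries. In vehicle at 8 h the replicates stood at 13.4, 16.7 and 9.99%, a range that takes in every other library except vehicle replicate 1 at 2 h. At 2 h the vehicle libraries had 8.87, 11.2 and 11.01%. The code D libraries at 8 h had 13.035, 11.6 and 13.9%, those of code L 12.1, 12.9 and 11.7%, and those with both agents 12.6, 12.4 and 12.02%. All 3 treated groups at 8 h thus lay inside the spread of vehicle. In such bulk samples a change in the share of a kind of cell and a change of RNA per cell cannot be told apart.

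The nuclear genes together took 0.938 to 1.27% of the counts outside mitochondrial DNA. At 8 h vehicle had 1.13, 1.26 and 1.14%. The code D libraries had 1.12, 0.944 and 1.01%, the code L libraries 1.07, 1.03 and 1.01%, and both agents 1.13, 1.27 and 1.09%. Every library of either single treatment at 8 h lay below every vehicle library, whereas vehicle and both agents overlapped. On summed deposited TPM this held for code L but not for code D. The nuclear sums in vehicle were 19826, 19615 and 22060 TPM, those in code D 20215, 18662 and 17677 TPM, and those in code L 19565, 18462 and 18995 TPM. Vehicle replicate 2, the highest vehicle library by share of counts, was the lowest by TPM, where its mitochondrial genes took 26.8% of the total. At 2 h vehicle had 1.04, 1.11 and 1.09%, code D 1.12, 1.23 and 1.11%, code L 0.938, 0.957 and 1.09%, and both agents 0.957, 1.06 and 1.03%. Code L and both agents overlapped with vehicle at 2 h, and the code D libraries overlapped with it slightly.

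**Figure D2:**
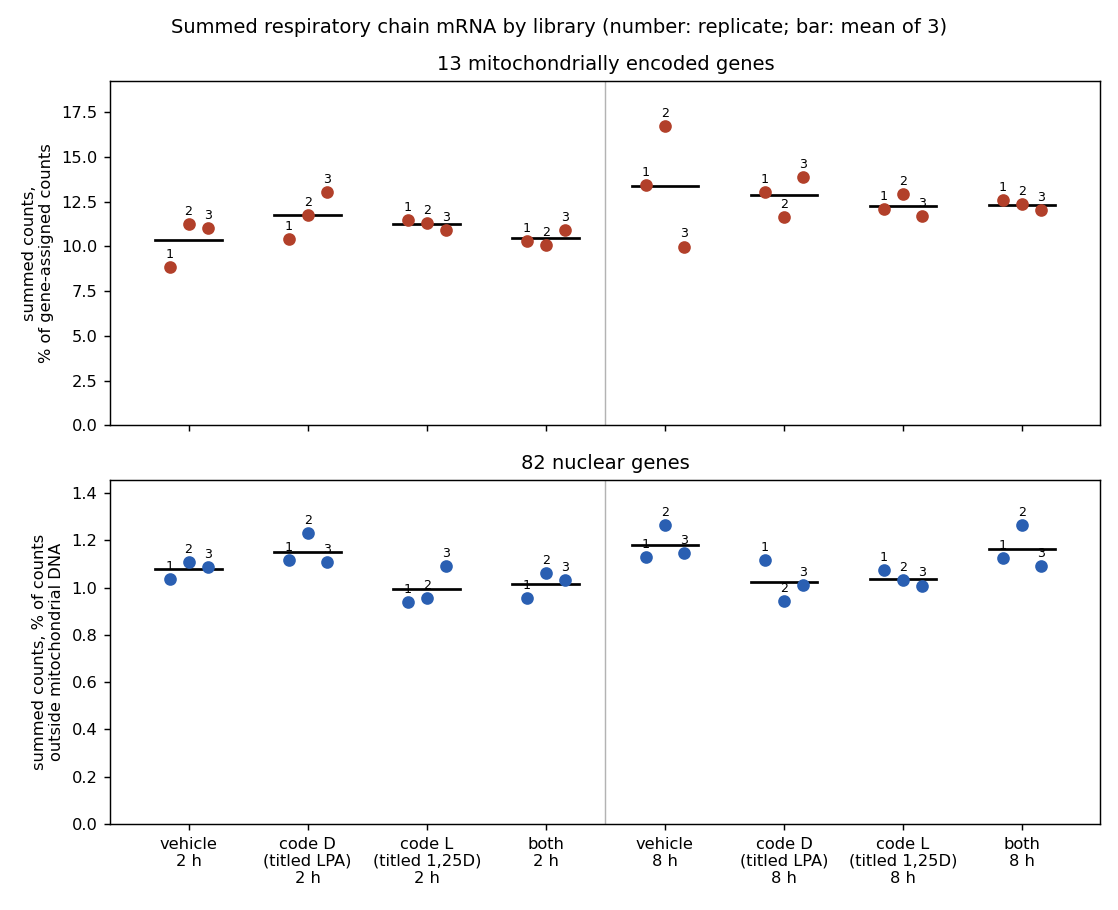
Summed counts of the 13 mitochondrial genes (top, % of gene-assigned counts) and of the 82 nuclear genes (bottom, % of counts outside mitochondrial DNA) in each library, with the replicate number at each point and a bar at the mean of 3. The 8 h vehicle libraries span 9.99 to 16.7% for the mitochondrial genes, and code D and code L lie below vehicle for the nuclear genes at 8 h on this scale, which on summed TPM does not hold for code D.

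Genes of each genome went up and down together across the 24 libraries, and the genomes went largely their own way. The median Pearson r of log2 levels was 0.71 over 2926 pairs of nuclear genes and 0.68 over 78 pairs of mitochondrial genes, but 0.23 over 1001 pairs from different genomes. It was -0.0015 over all pairs of tested genes. With group means removed the medians were 0.74, 0.74 and 0.28, so the shared movement lay between replicates. These r values are descriptions over 24 libraries that share their total counts and scaling. Among nuclear genes Cox6a1 followed the mean of the others most closely (r 0.96), then Ndufa5 and Cox6b1 (0.95 each). Ndufa4l2 (-0.012), Atp5g2 (0.072), Cox7b2 (0.17) and Cox7a1 (0.27) did not follow it. Cox7b2 and Cox7a1 were near the floor, with mean counts of 9.42 and 27.2 per library, so their r says little.

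Among the mitochondrial genes 2 stood apart. mt-Co2, which carries the copper site that accepts electrons from cytochrome c, had an r of 0.13 with the mean of the others, and mt-Nd3 of 0.15. The other 11 ranged from 0.67 to 0.89. mt-Co2 and mt-Nd3 had an r of 0.57 with each other, and mt-Co2 of 0.66 with mt-Co3. mt-Co2 spanned 3186 CPM (counts scaled to a common library size) in a code D library to 10320 CPM in a code L library, both at 2 h. mt-Atp8 had its lowest and highest value within 1 group: vehicle at 8 h held 1160, 2640 and 465 CPM.

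**Figure D3:**
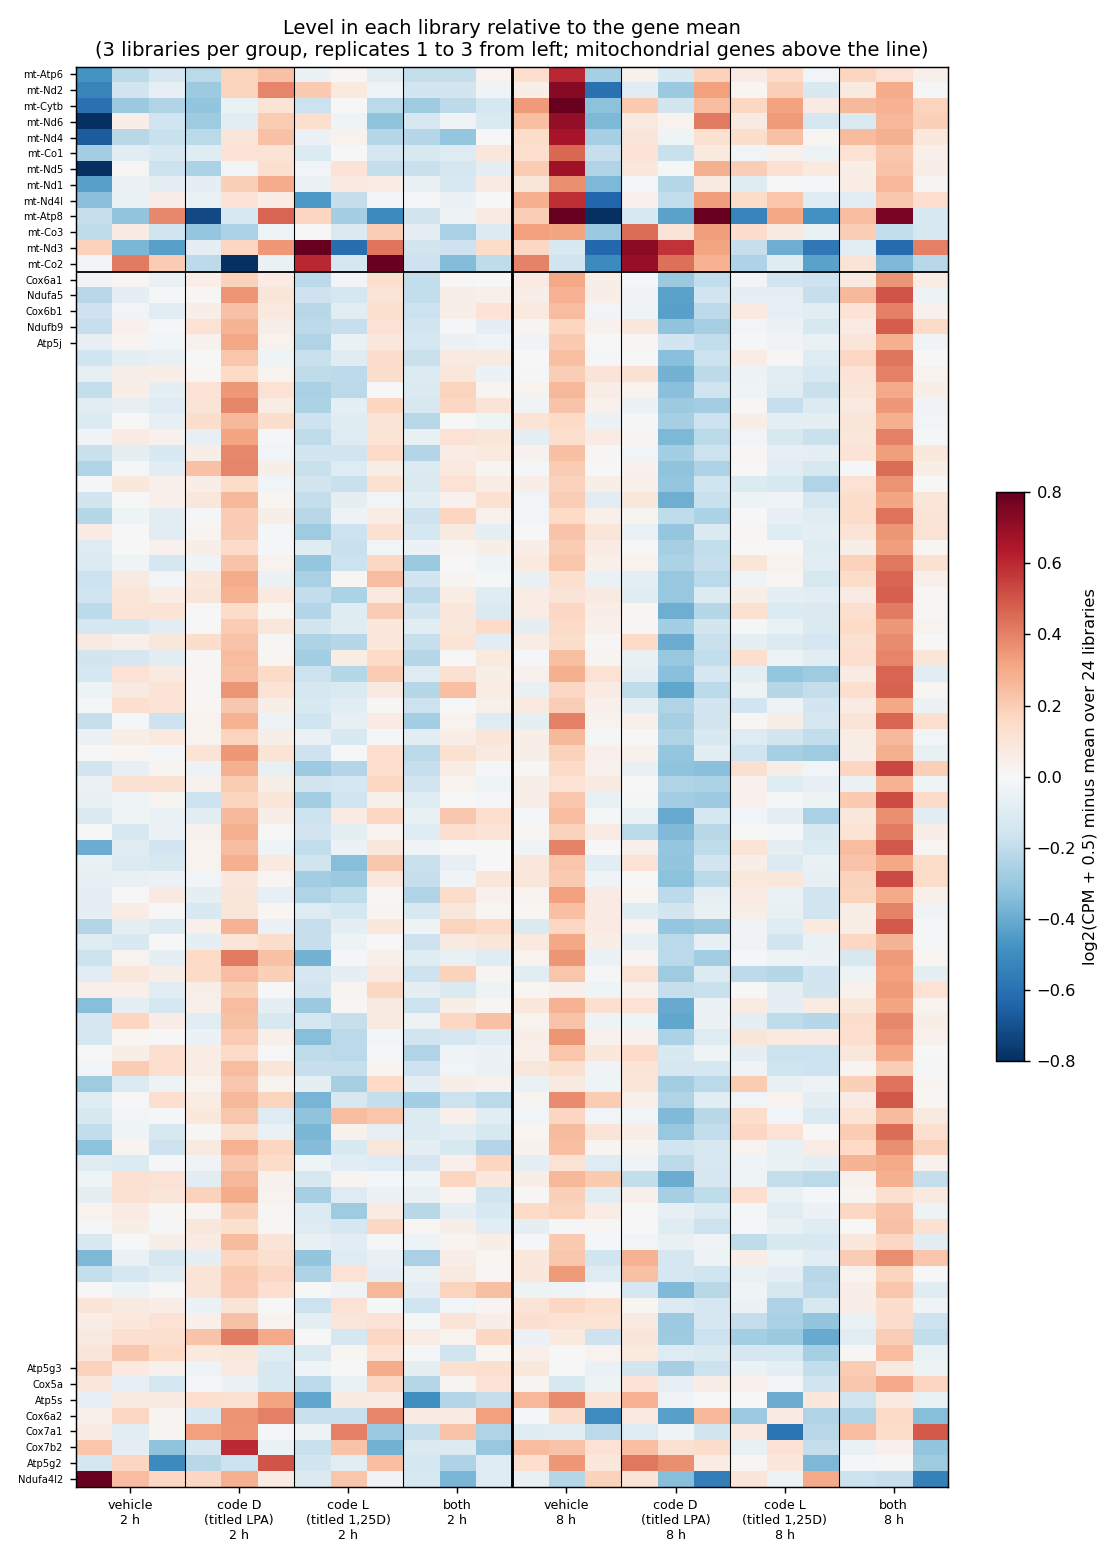
Level of each tested member in each library as log2(CPM + 0.5) minus its mean over 24 libraries (values past the ends of the color scale take its end color), with mitochondrial genes above the line and genes ordered within genome by their r with the others (names at the mitochondrial rows and at the ends of the nuclear block). The nuclear block is mostly red in both agents replicate 2 at 8 h and mostly blue in code D replicate 2 at 8 h, vehicle replicate 2 at 8 h is the reddest column of the mitochondrial block, and mt-Nd3 and mt-Co2 keep a pattern of their own.

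The nuclear movement was shared with genes outside the chain. Cytosolic ribosomal protein genes, a list added after values were seen, took 4.14 to 6.17% of counts outside mitochondrial DNA. The libraries with the highest nuclear share, both agents replicate 2 at 8 h (1.27%), vehicle replicate 2 at 8 h (1.26%) and code D replicate 2 at 2 h (1.23%), had 6.17, 5.76 and 5.87%, the 3 highest values of the ribosomal list. The median r of nuclear members with ribosomal protein genes was 0.73, as large as within the nuclear members. Both kinds of transcript are short: the median length was 665 bases in nuclear members, 658 in the ribosomal list and 2143 over tested genes. GC content had a median of 52.3% in nuclear and 37.1% in mitochondrial members, against 50.3% overall. The part of length, GC content or single libraries in the results below was not tested beyond the alternatives named there.

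**Figure D4:**
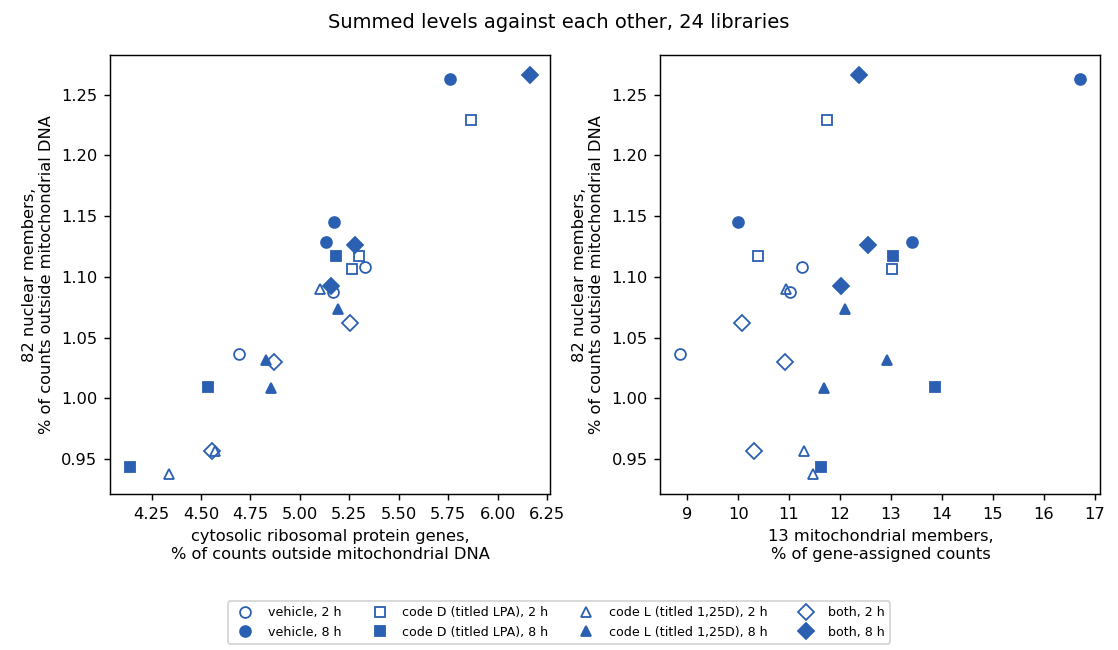
Summed nuclear members (% of counts outside mitochondrial DNA) against the ribosomal protein list (left) and against the mitochondrial members (right), 1 point per library. The highest nuclear values, 1.23 to 1.27%, coincide with the highest ribosomal values, 5.76 to 6.17%, while the mitochondrial axis shows no such order.

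The comparisons with vehicle at a time share its 3 libraries, so their values are not independent. Over all tested genes the median log2 fold change of each of the 14 comparisons lay between -0.0205 and 0.035. At 2 h 1 member changed, with both agents. With code D against vehicle none of 13 mitochondrial and none of 77 nuclear genes passed an adjusted p of 0.05 in edgeR's quasi-likelihood test, where 0.785% of all 16424 tested genes did. At an unadjusted p under 0.05 there were 4 and 14, against 2251 of the 16424 tested genes, and DESeq2 called 0 of either. The median log2 fold change was 0.28 for the mitochondrial and 0.15 for the nuclear genes. With code L none passed either, against 13.9% of all genes. At an unadjusted p under 0.05 there were 0 and 4, against 4145 of 16424 genes. DESeq2 called 0 there as well.

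With both agents at 2 h the single call was Ndufa4l2, against 19.9% of all genes called. It stood at 5.996, 3.27 and 3.06 CPM in vehicle and 2.40, 1.97 and 2.45 CPM with both agents. The groups did not overlap, and vehicle replicate 1 stood far above the other vehicle libraries. Its log2 fold change was -0.86 ± 0.24 (SE, n = 3 against 3, edgeR adjusted p = 0.0147). Without vehicle replicate 1 the change was -0.48 and not called, nor was it without both agents replicate 2 (-0.76).

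In vehicle cells 3 of 13 mitochondrial messages were called higher at 8 h than at 2 h, against 14.6% of all genes called. The groups overlapped in all 13, while in 29.4% of all tested genes they did not, and 1 of the 13 had a negative value. mt-Cytb had 10310, 12710 and 13190 CPM at 2 h and 19750, 27410 and 12420 CPM at 8 h, a log2 fold change of 0.72 ± 0.19 (SE, edgeR adjusted p = 0.0111). Replicate 3 at 8 h lay within the 2 h range. mt-Nd4, a proton-pumping subunit of complex I, had 10020, 13610 and 14030 CPM against 17530, 25070 and 13220 CPM (0.57 ± 0.17, edgeR adjusted p = 0.0297). mt-Atp6 was higher by 0.47 ± 0.16 (edgeR adjusted p = 0.0484), again with overlap. No member was called without vehicle replicate 1 at 2 h or without vehicle replicate 2 at 8 h, 2 were without vehicle replicate 1 at 8 h, and 11 without vehicle replicate 3 at 8 h. Over all genes 1635 of 17009 were called without vehicle replicate 1 at 2 h. Without replicate 2 at 8 h there were 1606 of 17039, and without replicate 1 at 8 h 1735 of 17023. No nuclear member was called, with 7 at an unadjusted p under 0.05, against 4567 of 16424 genes. DESeq2 called 1, against 2785 of 13241 genes. The nuclear median was 0.12.

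At 8 h few nuclear members were called after either single treatment, and all of those were lower. Code D against vehicle had 4 of 77 lower and none higher. Over all genes 12% were called and 5.38% called lower, so the share of calls at the adjusted threshold was near the background. At an unadjusted p under 0.05 there were 40 of the 77, against 4762 of 16424 genes. Of the 77, 73 of 77 had a negative fold change with a median of -0.23. Ndufs5, an accessory subunit of complex I, had 66.0, 76.8 and 73.7 CPM in vehicle and 55.6, 48.2 and 58.0 CPM in the code D libraries (-0.42 ± 0.11, SE, edgeR adjusted p = 0.0131). Atp5o, the stalk subunit of ATP synthase that confers oligomycin sensitivity, had 217, 245 and 224 CPM against 185, 168 and 184 CPM (-0.35 ± 0.09, edgeR adjusted p = 0.014). Cox6a1 fell by 0.31 and Ndufv1, the NADH-binding subunit of complex I, fell by 0.26 on the log2 scale. In all 4 the libraries of the groups did not overlap, as in 32 of the 77 nuclear members and 28.3% of all tested genes. All 38 complex I members and all 8 of complex III had negative values, as did 11 of 14 in complex IV and 16 of 17 in complex V.

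The calls depended on single libraries. Without vehicle replicate 2 or code D replicate 2 none was called, without code D replicate 3 there were 2, without vehicle replicate 3 there were 10 and without code D replicate 1 there were 35, while the nuclear median stayed between -0.35 and -0.10 over all alternatives. Calls over all genes moved too, from 1971 of 16424 to 1067 of 17039 without vehicle replicate 2. Of the members DESeq2 called 13, against 2742 of 13241 genes, and the fit of the compared groups alone 0, against 565 of 14860 genes. The ribosomal list moved the same way, with 4 of 79 lower and a median of -0.24. No mitochondrial gene was called, with 2 at an unadjusted p under 0.05, against 4762 of 16424 genes, and 0 by DESeq2.

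Code L against vehicle at 8 h had 6 of 77 nuclear members lower and none higher, against 16.2% of all genes called and 8.32% called lower, again near the background. At an unadjusted p under 0.05 there were 21 of the 77, against 4939 of 16424 genes. Ndufb10, an accessory subunit of complex I, had 88.9, 87.6 and 87.3 CPM in vehicle and 70.9, 67.5 and 65.1 CPM in the code L libraries (-0.38 ± 0.086, SE, edgeR adjusted p = 0.00467). It was called in all 15 alternatives, and no other called member was. Among the others, Ndufa8 fell by 0.28 and Ndufb11 fell by 0.33, both accessory subunits of complex I. Ndufs5 fell by 0.32 and Atp5a1, the alpha subunit of ATP synthase, fell by 0.25. In each of the 6 the groups did not overlap, as in 31 of the 77 nuclear members and 36.4% of all tested genes. A negative value was found in 74 of 77 nuclear genes, with a median of -0.14. Without vehicle replicate 2 or code L replicate 2 only 1 was called, without code L replicate 3 there were 2, without vehicle replicate 1 or code L replicate 1 there were 3. Calls over all genes went from 2662 of 16424 to 1518 of 17039 without vehicle replicate 2. Here the ribosomal list had a median of -0.07 with 1 of 79 higher and none lower. All 13 mitochondrial genes had a negative value and none was called, also by DESeq2. At an unadjusted p under 0.05 there were 0, against 4939 of 16424 genes. The mitochondrial median of -0.13 turned to 0.14 without vehicle replicate 2, as it turned to 0.17 with code D and 0.16 with both agents.

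With both agents at 8 h nuclear members were near vehicle. Cox5a, a nuclear subunit of complex IV, was the single call, against 16.8% of all genes. It had 55.4, 50.0 and 53.1 CPM in vehicle and 63.5, 67.7 and 61.6 CPM with both agents (0.28 ± 0.10, SE, edgeR adjusted p = 0.0474), without overlap. The call was kept in 1 of 15 alternatives, DESeq2, and was lost when any 1 of the 6 libraries was left out, with values of 0.24 to 0.30. The nuclear median was 0.08 and the mitochondrial -0.09, with no mitochondrial call, also by DESeq2. At an unadjusted p under 0.05 there were 0 mitochondrial genes, against 4551 of 16424 genes.

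**Figure D5:**
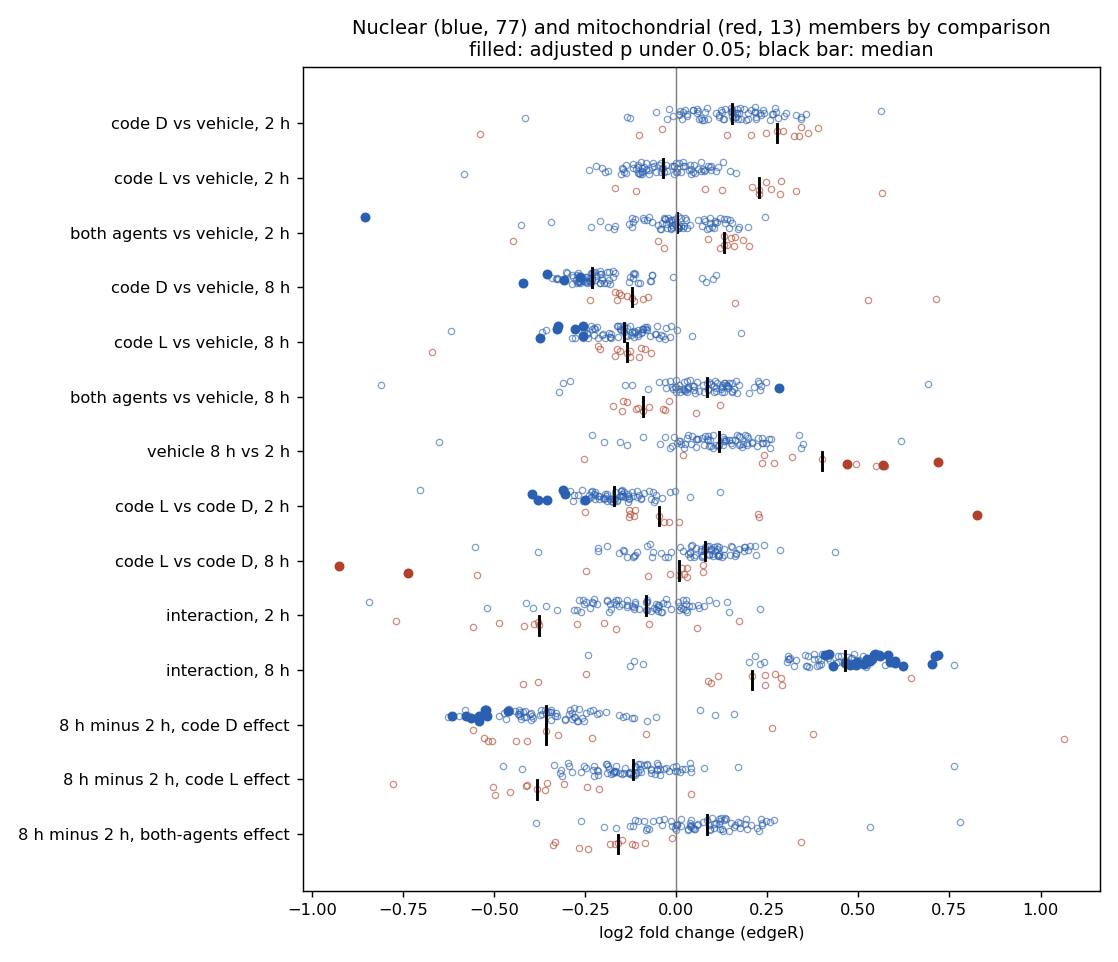
Log2 fold change of each tested member in the 14 comparisons (x axis), nuclear genes in blue and mitochondrial genes in red, filled where the adjusted p is under 0.05, with a black bar at the median. In the 8 h interaction the nuclear median lies at 0.46 with 25 filled points, and at 0.21 with none for the mitochondrial genes.

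The interaction at 8 h (both agents minus code D minus code L plus vehicle on the log2 scale) asks whether the agents together differ from the sum of their single effects. It was positive for 25 of 77 nuclear members, against 7.68% of all genes called in either direction, and negative for none. The calls took in 12 of 38 complex I, 1 of 8 complex III (Uqcrq), 4 of 14 complex IV and 8 of 17 complex V members. Of the 77, 73 had a positive value, with a median of 0.46. At an unadjusted p under 0.05 there were 66 of the 77, against 5738 of 16424 genes. The leading member by p was Atp5o, at 0.60 ± 0.13 (SE, edgeR adjusted p = 0.0265), whose single-treatment values are above. With both agents it had 232, 286 and 223 CPM, near the 217, 245 and 224 CPM of vehicle. Cox6a1 followed at 0.59 ± 0.14 (edgeR adjusted p = 0.0334), with 473, 560 and 468 CPM in vehicle, 450, 368 and 394 in code D, 445, 408 and 404 in code L and 474, 577 and 472 with both agents. Ndufv1 came next at 0.50 ± 0.12 (edgeR adjusted p = 0.034). Atp5k, a subunit of the membrane part of ATP synthase, had the largest called value at 0.72 ± 0.17. Atp5k and Uqcrq are named after their values were seen. No mitochondrial gene was called, with 0 at an unadjusted p under 0.05, against 5738 of 16424 genes, and 0 by DESeq2. The mitochondrial median was 0.21, or -0.15 without vehicle replicate 2.

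This count depended on the libraries. It was 0 without vehicle replicate 2, code D replicate 2 or 3, code L replicate 2 or 3 or both agents replicate 2, was 1 without code L replicate 1 and 3 without both agents replicate 1, and was 57, 60 and 65 without vehicle replicate 3, both agents replicate 3 and code D replicate 1. Calls over all genes fell likewise, from 1262 to 48 without vehicle replicate 2. Without vehicle and both agents replicate 2 together there were 25, and the nuclear median was then 0.29. Removing trends over GC content and length left a median of 0.19 and 18 nuclear calls, against 1778 of 16424 genes. The ribosomal list had 19 of 79 higher, with the same median of 0.46, and mitochondrial ribosomal proteins 9 of 78 higher and 1 lower with a median of 0.35. At 2 h the interaction called no member, against 0.0365% of all genes, and 0 by DESeq2. At an unadjusted p under 0.05 there were 0 mitochondrial and 2 nuclear genes, against 714 of 16424 genes.

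The effect of code D against vehicle was called lower at 8 h than at 2 h for 9 of 77 nuclear members, against 6.76% of all genes called, and higher for none. Atp5o led at -0.52 ± 0.13 (SE, edgeR adjusted p = 0.0216), before Ndufa7 (-0.46) and Atp5j2 (-0.54), and 74 of 77 values were negative with a median of -0.36. At an unadjusted p under 0.05 there were 49 of the 77, against 5105 of 16424 genes. The members called fell to 0 without vehicle replicate 2 at 8 h or code D replicate 2 at either time, to 1 without vehicle replicate 1 or 3 at 2 h or code D replicate 3 at 8 h and to 5 without vehicle replicate 2 at 2 h, and rose to 25 without vehicle replicate 3 and 36 without code D replicate 1 at 8 h. Calls over all genes went from 1110 to 431 without vehicle replicate 2 at 8 h and to 468 without code D replicate 2 at 2 h. The ribosomal list had 8 of 79 lower and a median of -0.37. For the effect of code L no member was called between the times, against 4.17% of all genes, and 0 by DESeq2. At an unadjusted p under 0.05 there were 3, against 2779 of 16424 genes. Nor was any called for both agents, against 9.68% of all genes, and 0 by DESeq2. There 1 had an unadjusted p under 0.05, against 3593 of 16424 genes.

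Set against each other, the single treatments differed in mt-Co2 in opposite directions at the 2 times. At 2 h mt-Co2 had 4934, 3186 and 5501 CPM in the code D libraries and 8645, 5181 and 10320 CPM in those of code L, higher in code L by 0.83 ± 0.23 (SE, edgeR adjusted p = 0.0171), with overlap. At 8 h it had 9241, 7740 and 6921 CPM in code D and 4790, 5320 and 4226 CPM in code L, lower in code L by a log2 value of -0.74 ± 0.23 (edgeR adjusted p = 0.032), without overlap. mt-Nd3 at 8 h had 108, 97.7 and 81.4 CPM in code D and 57.5, 49.8 and 43.9 CPM in code L (-0.93 ± 0.29, edgeR adjusted p = 0.0293), also without overlap. Neither mt-Co2 nor mt-Nd3 was called against vehicle in either single treatment. Vehicle had 5614, 7602 and 6560 CPM of mt-Co2 at 2 h and 7486, 5099 and 4002 CPM at 8 h. Of mt-Nd3 it had 73.4, 60.0 and 42.0 CPM at 8 h. The 11 other mitochondrial genes were not called between the single treatments at either time. Of all genes 18.1% were called at 2 h and 17.6% at 8 h. Nuclear members were lower in code L at 2 h in 6 cases, led by Ndufv3 (-0.40 ± 0.11), Atp5j2 (-0.35 ± 0.10) and Ndufs8 (-0.31 ± 0.093), and in none at 8 h. At 8 h 3 nuclear members had an unadjusted p under 0.05, against 4613 of 16424 genes, and DESeq2 called 0. At 2 h the members called were 0 without code L replicate 1 or code D replicate 2, 2 without code L replicate 2 and 14 without code L replicate 3. Over all genes these fits called 2133 of 17021, 1927 of 17002, 1952 of 17008 and 2709 of 17018, in that order. At 8 h the members called were 0 without any 1 code L library or without code D replicate 2.

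Complex II, which is wholly nuclear and passes electrons from succinate, is outside the symbols of the rule. Of its 4 genes Sdhc fell by 0.30 and Sdha fell by 0.25 with code L at 8 h, where 8.32% of all genes were called lower. Sdhc was positive in the 8 h interaction (0.39 ± 0.12), where 4.06% of all genes were called higher. Cycs, the electron carrier cytochrome c, rose with code L at 2 h (0.38 ± 0.12) and 8 h (0.39 ± 0.12) and with both agents at 2 h (0.46 ± 0.12) and 8 h (0.39 ± 0.12), opposite in sign to most nuclear members at 8 h with code L. Its value with code D at 8 h was -0.22 ± 0.12, not called. Cyc1, cytochrome c1 of complex III, rose with both agents at 8 h (0.20 ± 0.06). Of all genes 7.06 and 7.89% were called higher with code L at 2 h and 8 h, and 9.88 and 9.54% with both agents. Whether the calls of these genes outside the rule hold under the alternatives was not tested.

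Of other nuclear genes that serve mitochondria, a minority of each list was called with both agents at 8 h, where 9.54% of all genes were called higher. Of 17 genes for transcription and replication of mitochondrial DNA, 3 were higher, among them Tfb2m (0.46 ± 0.10) and Tfam (0.30 ± 0.08), which packages that DNA and acts in its transcription. Of 28 factors for mitochondrial RNA 8 were higher, led by Tbrg4 (0.56 ± 0.08) and Lrpprc (0.29 ± 0.06), which stabilizes mitochondrial messages. Of 27 import genes 10 were higher, led by Timm8a1 (0.82 ± 0.11), and of 78 mitochondrial ribosomal proteins 17, led by Mrpl22 (0.62 ± 0.11). Of 42 tested assembly factors 6 were higher, led by Sco2 (0.97 ± 0.11), a copper chaperone of complex IV. In none of these lists was a gene lower there. The regulator Nrf1 and the mitochondrial RNA polymerase Polrmt were not called in that comparison (0.03 ± 0.07 and 0.27 ± 0.24), and 1 of 14 tested regulators was higher, Myc (0.70 ± 0.17), and 1 lower, Nfe2l1. In vehicle, 8 h against 2 h, Lrpprc fell by 0.30 and Nrf1 fell by 0.26. The 2 mitochondrial ribosomal RNAs and the 8 tested transfer RNAs were called in no comparison.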

How the data were processed

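RNA was isolated by an RNeasy column kit and sequenced from DNBSEQ libraries, per the labels' protocols. Each deposited table holds estimated counts and TPM per transcript, as the authors made them. The submitters' processing notes name the build mm39. The quantifier was not given in these sources. Transcripts were given gene names from GENCODE M21 (135078 of 139145 matched, holding 99.45 to 99.60% of counts), summed per gene and rounded. A single edgeR 4.0.16 quasi-likelihood fit over all 8 groups used TMM scaling and filterByExpr (minimum count 10), with Benjamini-Hochberg adjustment over 16424 genes and a threshold of 0.05. Its common biological coefficient of variation was 0.131. The fit was tested on simulated data. Groups were taken from the sample titles. CPM use TMM-scaled library sizes, and correlations use log2(CPM + 0.5). Precision is limited by 3 libraries per group. No pair of libraries agreed within counting noise (chi-square per degree of freedom 7.08 or more).

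Members and lists were chosen with earlier results of these data known. The cytosolic ribosomal list was added after values were seen, and its symbol pattern was narrowed once to leave out Rps6k kinases. Genes were named by a rule: all mitochondrial members, isoform pairs and extremes of level, up to 8 called nuclear members each way in vehicle comparisons and up to 3 elsewhere, and up to 2 per list with Tfam, Polrmt, Ppargc1a, Nrf1 and Lrpprc. The values of 1 called member are not reported here. Alternatives were DESeq2 1.42.0, other scaling, no filter, length-scaled TPM, fits without mitochondrial genes or of the compared groups alone, a replicate block and leaving out each library. Removing GC and length trends, and leaving out 2 libraries together, were chosen after seeing the data.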

Additional observations from a re-analysis of the deposited data

Results flagged for a closer look

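The effect of the agents together differed from the sum of their single effects at 8 h in 25 of 77 nuclear members, all with a positive interaction, against 7.68% of 16424 tested genes. None of the 13 mitochondrial members was called, and the contrast between the genomes was not tested. The difference itself was tested, as an interaction term in edgeR's quasi-likelihood fit. The count was 0 in the fit of the compared groups alone and 0 without vehicle replicate 2, code D replicate 2 or 3, code L replicate 2 or 3 or both agents replicate 2, all at 8 h. Over all genes 13 of 15604 were called in the fit of the compared groups alone and 48 of 17039 without vehicle replicate 2. Of 79 ribosomal protein genes 19 were called positive.

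The effect of code D against vehicle was called different between 2 h and 8 h in 9 of 77 nuclear members, all lower at 8 h, against 6.76% of all tested genes. This difference was tested in the same fit. The count was 0 without vehicle replicate 2 at 8 h or code D replicate 2 at either time, and reached 36 without code D replicate 1 at 8 h. Calls over all genes went from 1110 to 431 without vehicle replicate 2 at 8 h.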

How the results depend on the processing

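No member called in the main fit turned its direction under an alternative, and Ndufb10 with code L at 8 h kept its call in all 15. This check did not cover the medians, and some mitochondrial medians changed sign, as given above. Counts of called members moved as follows. With DESeq2 they were 13 for code D at 8 h, 6 for vehicle over time, 55 for the 8 h interaction and 23 for the time difference of code D. Over all genes DESeq2 called 2742 of 13241, 2785 of 13241, 3547 of 12565 and 2367 of 11889, in that order. With GC and length trends removed the members called were 4 for both agents at 2 h, 12 for code L at 8 h, 6 for vehicle over time and 1 for the time difference of code L. Of all 16424 genes 3460, 3674, 3137 and 1070 were called, in the same order. With the compared groups alone, where fewer samples estimate the spread, the members called were 2 for both agents at 2 h, 0 for code D, 2 for code L and 0 for both agents at 8 h, 0 for vehicle over time, 11 and 4 for code L against code D at 2 h and 8 h, 0 for the 8 h interaction and 2 for the time difference of code D. Calls over all genes were 3016, 565, 1287, 988, 413, 4269, 3080, 13 and 443 in the same order, of 14575 to 15613 tested. With length-scaled TPM counts the members called were 0 for both agents at either time and 13 for the 8 h interaction. Of all 16650 genes 2466 and 2119 were called there for both agents at 2 h and 8 h, and 542 for the interaction. With median-of-ratios scaling they were 0 for both agents at 8 h, against 2762 of 16424 genes. With no filter the members called were 5, 4 and 2 for code D, code L and both agents at 2 h, 12 for code D and 0 for both agents at 8 h, 11 for vehicle over time, 4 for code L against code D at 8 h, 2 and 46 for the interactions at 2 h and 8 h, and 36 and 4 for the time differences of code D and code L. Of all 34884 genes 373, 2056, 2989, 3006, 2521, 2451, 2648, 88, 3094, 3065 and 1046 were called, in the same order. Without vehicle and both agents replicate 2 at 8 h the members called were 2 for code D, 2 for code L and 0 for both agents at 8 h, 0 for vehicle over time, 0 for the 8 h interaction and 2 for the time difference of code D. Of all 16988 genes 1328, 1929, 2251, 1993, 25 and 762 were called, in the same order. Apart from the fits named for their construction, the cause was not tested. Leaving out 1 library gave 0 to 1 for code L at 2 h, 0 to 1 for both agents at 2 h and at 8 h, 0 to 35 for code D at 8 h, 1 to 7 for code L at 8 h, 0 to 11 for vehicle over time, 0 to 14 and 0 to 2 for code L against code D at 2 h and 8 h, 0 to 65 for the 8 h interaction and 0 to 36 for the time difference of code D. Calls over all genes moved as well, for the 8 h interaction from 1262 to 48 without vehicle replicate 2 at 8 h.

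Whether the replicate numbers pair the samples was not settled. Libraries of a time with the same number had a median r of -0.001 between their deviations (-0.254 to 0.355). The median was 0.009 for different numbers (-0.310 to 0.224). With a replicate block the count was 21 for the 8 h interaction and 0 for both agents at 8 h, against 1347 and 2679 of all 16424 genes.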
